A study of Mus musculus with 12 samples.

Results

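Chemokines and their receptors were examined in prostate RNA from mice aged 4 months that were null (-/-) or wild type (+/+) for the gene under study. The members were all rows of the deposited gene table whose Ensembl ID maps to a protein-coding mouse gene with a chemokine or chemokine receptor symbol (Ccl, Cxcl, Cx3c, Xcl1, Xcr1, Ccr, Cxcr or Ackr). There were 67 such rows among 39179, and 7 of them were copies on scaffolds outside the assembled chromosomes. The 67 rows carried 62 symbols, of 44 ligand rows, 19 receptor rows and 4 atypical receptors. Of the 67, 40 were at a value of 4 or more in 6 or more of the 12 libraries and were tested. Cxcl11, annotated in GENCODE M21 as a polymorphic pseudogene, was outside the rule.

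The mice were hybrids of 129/SvImJ with C57Bl/6J in both genotypes, and all had received paraquat, a herbicide that makes cells produce superoxide. There were 6 null and 6 wild-type libraries, each from whole prostate tissue, and no untreated mice among those used here. The labels give no dose or route for paraquat, do not say how the null allele was made, and do not say which libraries came from separate animals. Values are the authors' normalized log2 values, on which a difference of 1 is a factor of 2 for well expressed genes and is understated for low ones. Each difference is null minus wild type, and a called gene had an adjusted p of 0.05 or less in limma, a linear model fitted over all genes, adjusted by Benjamini-Hochberg for all 16197 tested genes.

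Chemokines are small secreted proteins that guide leukocytes along gradients and into tissues, and are grouped as CC, CXC, XC and CX3C by the spacing of their first cysteines. They act through G protein-coupled receptors on leukocytes, stroma and epithelium. Atypical receptors bind chemokines without G protein signalling and remove them. In mucosal and glandular tissues some are made constantly by epithelium and stroma, and others are induced by interferon or NF-kappa B signalling during inflammation.

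The libraries of each genotype fell into sets of 3, libraries 1 to 3 and libraries 4 to 6, when clustered on all tested genes. Over those genes the median absolute difference between a pair of libraries was 0.0776 to 0.141 within a set, against 0.274 to 0.352 between sets of the same genotype. Reads estimated with a factor fitted on well expressed genes were 14.8 to 20.5 M per null library and 15.3 to 21.7 M per wild-type library. Because libraries of a set may not be independent samples, each comparison was made across the 12 libraries (n = 6 per genotype) and again over the means of the sets (n = 2 per genotype), and p-values over the libraries measure a spread that may be technical. The sets were found from the values and not from the labels. Transcripts of the seminal vesicle, a neighbouring gland, were present in null libraries: the log2 of the summed level of 8 marker genes was 21.40 to 21.42 in null libraries 1 to 3, 16.82 to 16.86 in null libraries 4 to 6 and 5.87 to 7.85 in wild-type libraries. The part of this tissue in the results below was not tested. Of 6 genes of prostate secretion, all were called lower across the 12 libraries and 4 across set means, among them Pbsn, which encodes probasin, at 11.06 in the null and 18.43 in wild type.

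Of the 40 tested members, limma called 14 higher (7 of 26 ligands, 6 of 10 receptors and 1 of 4 atypical receptors) and 1 lower in null libraries across all 12. Of all genes tested, 65.9% were called in the same comparison, 34.1% higher and 31.8% lower, so the share called higher among the members was near that of all genes, while fewer were called lower. Over the set means limma called 0 members, against 4.09% of all genes (2.15% higher and 1.93% lower). An unadjusted p under 0.05 was found for 6 of the 40 members there and for 18 across the 12 libraries. The 65.9% of all genes called after adjustment across the 12 libraries is a larger share than 18 of 40. The share of all genes with an unadjusted p under 0.05 is not given here. The words rose and fell are therefore used of no member. The median difference of the 40 members was 0.39, beside 0.05 over all tested genes. Null and wild-type libraries did not overlap for 9 members, all higher in the null, and for 0 lower ones, against 21.5% and 22.7% of all tested genes (44.2% in either direction). Counts of these kinds describe the members and set no test of them as a group.

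Among the 9 members without overlap were Ccl28, Cxcr6, Cx3cr1, Xcl1, Ccr2, Cxcl12, Cxcl16 and Ackr4, and they are described first because of their values. All 9 were called higher across the 12 libraries. With the set as a random block in the fit, Ccl28 (adjusted p = 0.00197), Cxcl12 (adjusted p = 0.00294) and Cx3cr1 (adjusted p = 0.0164) were still called by limma and the other 6 were not. The remaining 5 members called higher were Ccl5, Cxcl15, Cx3cl1, Cxcr3 and Xcr1.

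**Figure D1:**
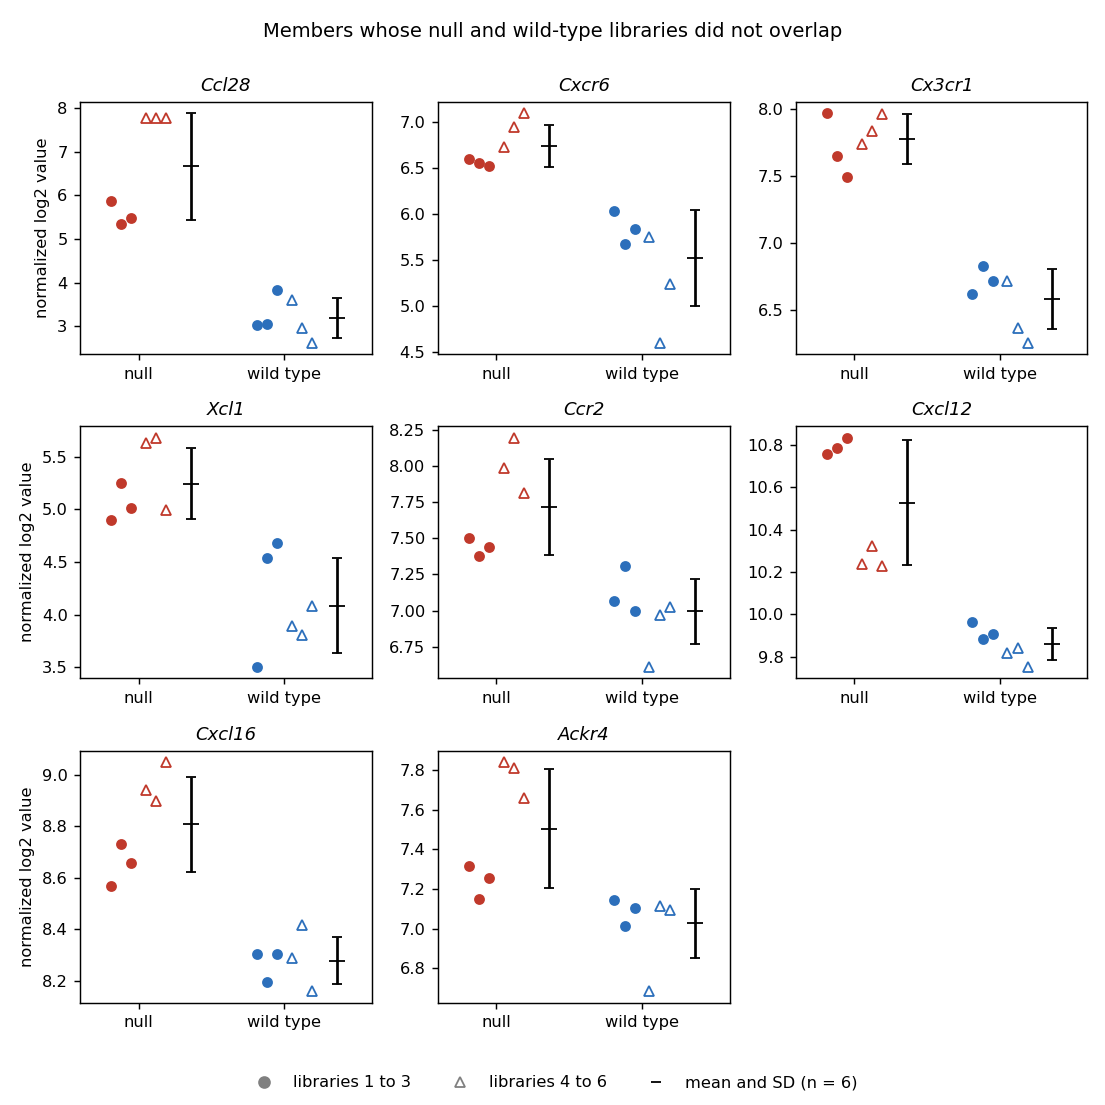
Normalized log2 value of 8 of the 9 members whose null and wild-type libraries did not overlap, by library, with the null on the left. Filled circles are libraries 1 to 3, open triangles libraries 4 to 6, and the bar is the mean with its SD (n = 6). Ccl28 shows the widest gap, with every null library above 5 and every wild-type library below 4.

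Ccl28, a CC chemokine made by mucosal and glandular epithelium that attracts IgA-secreting plasma cells and other lymphocytes through Ccr10 and Ccr3, had the largest difference of the members tested. The gene (ENSMUSG00000074715) lies on chromosome 13 of GRCm38, from 119623819 to 119654359 on the plus strand. It was at 5.88, 5.34, 5.47, 7.77, 7.77 and 7.77 in the null libraries, against 3.02, 3.06, 3.84, 3.61, 2.95 and 2.62 in the wild-type libraries. Every null library was above every wild-type library, and null libraries 4 to 6 were above null libraries 1 to 3. The mean was 6.67 ± 1.22 in the null and 3.18 ± 0.45 in wild type (SD, n = 6 each), a difference of 3.49 that corresponds to 11.2-fold on the linear scale. The difference had an adjusted p of 4.05e-05 across the 12 libraries (SE 0.47) and of 0.0524 across set means (SE 0.70), by limma in both cases. No wild-type library reached the value of 4 used as filter, so Ccl28 entered the test through the null libraries alone. Its wild-type values were near the floor of the scale, where differences are understated. The call across the 12 libraries was lost with a leukocyte covariate that included Cd52 and kept with one that did not, as given with the marker lists.

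The 250 bases before the annotated start of Ccl28 are shown because it had the largest difference, and those of Cxcl10, an interferon-induced ligand, because that promoter holds sites of inflammatory factors. Both were chosen after the values were seen and come from RefSeq (GRCm38.p6), chr13:119623569-119623818 on the plus strand and chr5:92348890-92349139 on the minus strand. Capitals mark an interferon-stimulated response element (ISRE), searched as GAAA, any 2 bases and GAAA, and a kappa B site, searched as GGGA, any 2 bases and TTCC, each on both strands.
Ccl28: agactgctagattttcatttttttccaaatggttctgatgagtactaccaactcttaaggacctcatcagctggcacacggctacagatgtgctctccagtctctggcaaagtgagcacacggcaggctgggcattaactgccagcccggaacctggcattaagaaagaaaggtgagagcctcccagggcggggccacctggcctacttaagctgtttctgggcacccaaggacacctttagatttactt
Cxcl10: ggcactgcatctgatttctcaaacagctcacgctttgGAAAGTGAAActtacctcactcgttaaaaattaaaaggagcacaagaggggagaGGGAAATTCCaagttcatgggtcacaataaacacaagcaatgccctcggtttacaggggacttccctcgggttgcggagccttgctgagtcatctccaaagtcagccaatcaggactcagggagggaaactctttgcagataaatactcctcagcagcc

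Cxcl10 held a match to the ISRE letters 213 and a match to the kappa B letters 159 bases before its start, and the Ccl28 window held neither. Other forms of the kappa B site were not searched for. Promoters were listed for 29 of the 40 tested members. The kappa B letters were in 1 of these 29 (Cxcl10), against 1.36% of 27025 genes with a listed promoter, and the ISRE letters in Cxcl10 and Cxcl14, against 3.46%. The promoters of 7 of the 9 members without overlap were listed, and 0 of the 7 held either. A search for TATAAA on the strand of the gene found it in 11 of the 29 members and in 8.94% of all genes. These are matches of letters and not evidence of binding.

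Ccr10 and Ccr3, the receptors of Ccl28, were not among the tested members. Ccr10 was at 3.97, 4.08, 4.68, 4.01, 4.07 and 4.31 in the null libraries, against 2.76, 3.60, 3.48, 3.34, 3.11 and 3.85 in the wild-type libraries. The genotypes did not overlap, at levels around the filter, and with no filter on low values limma gave an adjusted p of 0.0122 across the 12 libraries. Ccr3 did not reach 4 in any library.

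Cx3cr1, the receptor for fractalkine on monocytes, macrophages and some cytotoxic lymphocytes, was at 7.97, 7.65, 7.49, 7.73, 7.83 and 7.96 in the null libraries, against 6.62, 6.83, 6.72, 6.72, 6.37 and 6.26 in the wild-type libraries. All null libraries were higher, and the sets of null libraries overlapped each other. The means were 7.77 ± 0.19 in the null and 6.59 ± 0.22 in wild type (SD, n = 6 each), a difference of 1.19 (SE 0.27 across set means, adjusted p = 0.0669 there and 3.96e-06 across the 12 libraries by limma). Its ligand Cx3cl1, a membrane-bound chemokine of epithelium and endothelium, differed less. It was at 10.25, 10.14, 10.19, 10.59, 10.57 and 10.65 in the null libraries, against 10.23, 10.13, 10.15, 10.09, 10.19 and 10.16 in the wild-type libraries. Null libraries 1 to 3 lay within or just above the wild-type range and null libraries 4 to 6 above it, and the difference of 0.24 had an adjusted p of 0.0337 across the 12 libraries and 0.444 across set means (limma). The call across the 12 libraries was lost without null library 4, 5 or 6 or wild-type library 2, 3, 4 or 6 (adjusted p 0.0520 to 0.0741).

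Cxcr6 marks tissue-resident T cells and innate lymphoid cells, and its ligand Cxcl16 is made by macrophages, dendritic cells and epithelium. Cxcr6 was at 6.60, 6.56, 6.52, 6.72, 6.94 and 7.09 in the null libraries, against 6.03, 5.67, 5.84, 5.75, 4.60 and 5.24 in the wild-type libraries. The null libraries were all higher, and the wild-type libraries spread more widely. The difference was 1.22 (SE 0.36 across set means, adjusted p = 0.0986 there and 3.55e-04 across the 12 libraries by limma). Cxcl16 was at 8.57, 8.73, 8.66, 8.94, 8.90 and 9.05 in the null libraries, against 8.31, 8.19, 8.30, 8.29, 8.42 and 8.16 in the wild-type libraries. No library of one genotype reached into the range of the other, and the difference was 0.53 (SE 0.22 across set means, adjusted p = 0.166 there and 1.96e-04 across the 12 libraries by limma). Both the ligand and its receptor were thus among the members without overlap.

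Xcl1 is released by activated CD8 T cells and natural killer cells and attracts the cross-presenting dendritic cells that carry Xcr1. Xcl1 was at 4.90, 5.25, 5.01, 5.63, 5.68 and 5.0 in the null libraries, against 3.51, 4.54, 4.68, 3.90, 3.81 and 4.08 in the wild-type libraries. The null libraries were all above the wild-type ones, the lowest null library by only a little, and the difference was 1.16 (SE 0.35 across set means, adjusted p = 0.10 there and 6.37e-04 across the 12 libraries by limma). Xcr1 was at 4.86, 4.15, 4.45, 4.81, 5.31 and 5.34 in the null libraries, against 3.91, 4.23, 4.81, 4.48, 4.12 and 3.67 in the wild-type libraries. The genotypes overlapped for Xcr1, with a difference of 0.62 (adjusted p = 0.0404 across the 12 libraries and 0.296 across set means, limma).

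Among receptors of inflammatory CC chemokines, Ccr2 was higher across the 12 libraries and Ccr1 was not called. Ccr2, which brings monocytes out of the bone marrow, was at 7.50, 7.38, 7.44, 7.98, 8.19 and 7.81 in the null libraries, against 7.06, 7.31, 6.99, 6.61, 6.97 and 7.02 in the wild-type libraries. The lowest null library was only just above the highest wild-type library. The difference was 0.72 (adjusted p = 0.00134 across the 12 libraries and 0.169 across set means, limma). It was not called across the 12 libraries with the trend of values with transcript length removed, where it was 0.36 (adjusted p = 0.0932). The sources used here do not give how the authors' counting divided reads shared with similar genes.

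Inflammatory CC ligands gave a mixed picture. Ccl5, a product of T cells and natural killer cells, was at 7.55, 7.28, 7.19, 8.25, 8.29 and 8.39 in the null libraries, against 6.61, 6.98, 7.01, 7.57, 7.43 and 7.14 in the wild-type libraries. Within each genotype Ccl5 was higher in libraries 4 to 6, and the genotypes overlapped, with a difference of 0.70 (adjusted p = 0.0200 across the 12 libraries and 0.264 across set means, limma). Ccl4, made by activated macrophages and T cells, differed by 0.70 without being called (adjusted p = 0.0702 across the 12 libraries, limma). The Ccr2 ligands Ccl2, Ccl7 and Ccl12 differed by 0.07, -0.06 and 0.19 and none was called. Ccl8 differed by 0.21 and was not called either.

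Cxcl12, a stromal chemokine that retains stem cells and leukocytes in tissues, had a pattern of its own among the members without overlap. It was at 10.76, 10.79, 10.83, 10.24, 10.32 and 10.23 in the null libraries, against 9.97, 9.88, 9.91, 9.82, 9.84 and 9.75 in the wild-type libraries. All null libraries were higher, but here null libraries 1 to 3 were above null libraries 4 to 6. The mean was 10.53 ± 0.29 in the null and 9.86 ± 0.07 in wild type (SD, n = 6 each), a difference of 0.67 (SE 0.23 across set means, adjusted p = 0.124 there and 2.61e-04 across the 12 libraries by limma). Summed levels of the 6 fibroblast markers ran in the same order, at 13.82 to 13.87 in null libraries 1 to 3, 13.49 to 13.51 in null libraries 4 to 6 and 13.11 to 13.36 in wild-type libraries (log2 of the sum), with 5 of 6 called higher across the 12 libraries and 0 across set means. This order was not particular to fibroblasts. Summed blood endothelial markers were at 11.52 to 11.60, 10.91 to 10.99 and 10.20 to 10.43 in the same libraries, and seminal vesicle markers ran so too. General leukocyte and adipocyte markers were instead highest in null libraries 4 to 6. Of all tested genes, 34.1% were called higher across the 12 libraries. The part of any of these tissues in the Cxcl12 difference was not tested.

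The receptors of Cxcl12 did not follow it. Cxcr4, the signalling receptor on leukocytes, was at 5.89, 5.89, 5.90, 6.61, 6.43 and 6.27 in the null libraries, against 5.67, 5.61, 5.21, 6.53, 7.14 and 7.14 in the wild-type libraries. Libraries 4 to 6 were higher than libraries 1 to 3 in both genotypes, and the difference of -0.05 was not called. Ackr3, the atypical receptor that removes Cxcl12, was at 9.72, 9.62, 9.64, 10.66, 10.56 and 10.61 in the null libraries, against 10.34, 10.24, 10.24, 9.59, 9.64 and 9.45 in the wild-type libraries. The sets of each genotype stood apart in opposite directions for Ackr3, and the difference of 0.22 was not called (95% interval -0.70 to 1.13 across set means).

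Ackr4 removes Ccl19, Ccl21 and Ccl25 and was the 1 atypical receptor of 4 that was called. It was at 7.32, 7.15, 7.25, 7.84, 7.81 and 7.66 in the null libraries, against 7.15, 7.01, 7.10, 6.68, 7.12 and 7.09 in the wild-type libraries. Null libraries 1 to 3 lay just above the wild-type range and null libraries 4 to 6 further above it. The difference was 0.48 (adjusted p = 0.00897 across the 12 libraries and 0.303 across set means, limma), and without null libraries 4 to 6 it was 0.21 and not called (adjusted p = 0.131). Ackr1, on venules and red blood cells, and Ackr2, which removes inflammatory CC chemokines, differed by -0.11 and -0.34 and neither was called.

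**Figure D2:**
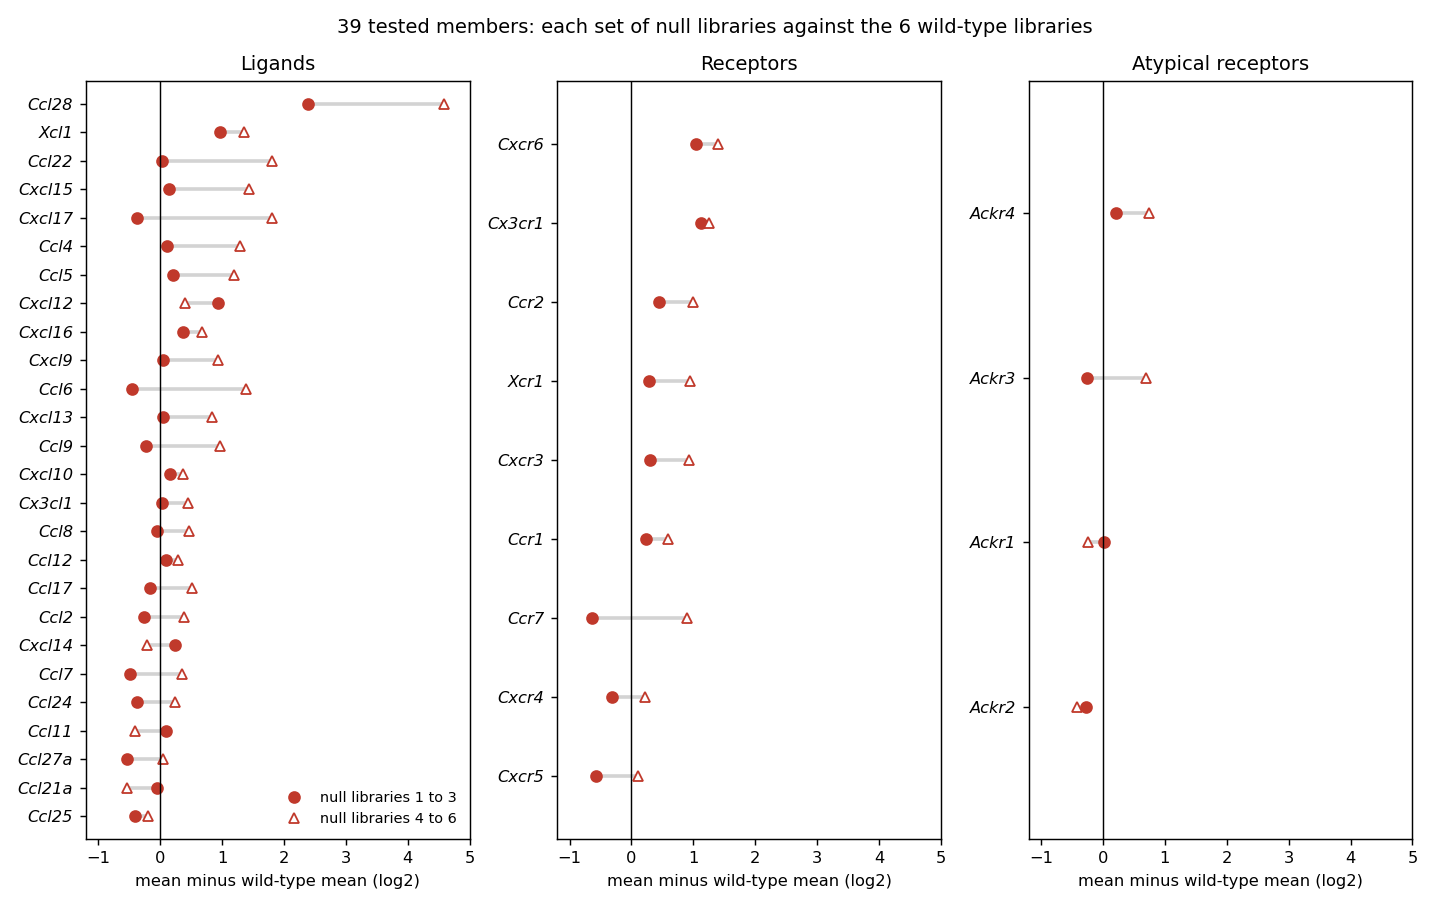
Mean of null libraries 1 to 3 (filled circles) and of null libraries 4 to 6 (open triangles), each minus the mean of the 6 wild-type libraries on the log2 scale, for 39 of the 40 tested members grouped as ligands, receptors and atypical receptors. For 33 of the members drawn the triangle lies to the right of the circle, and the circles gather around 0 for most ligands.

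The null libraries 4 to 6 carried most of the higher values. The mean of null libraries 4 to 6 was above that of null libraries 1 to 3 for 34 of 40 members (85%), beside 52.8% of all tested genes, and it was the highest of the 4 set means for 30 members (75%), beside 19% of all genes. The median of the 40 members relative to wild type was 0.69 in null libraries 4 to 6 and 0.05 in null libraries 1 to 3, and for all tested genes these medians were 0.02 and 0.05. In wild type, libraries 4 to 6 were above libraries 1 to 3 for 18 of 40 members. With null libraries 4 to 6 alone against wild type limma called 23 members higher and 1 lower (26.9% and 27.2% of all genes, 54.2% together), and with null libraries 1 to 3 alone 8 higher and 3 lower (35.9% and 33.7% of all genes, 69.6% together). The 8 called higher with null libraries 1 to 3 alone were the members without overlap other than Ackr4. Since the sets were found from the values, these figures are a description.

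**Figure D3:**
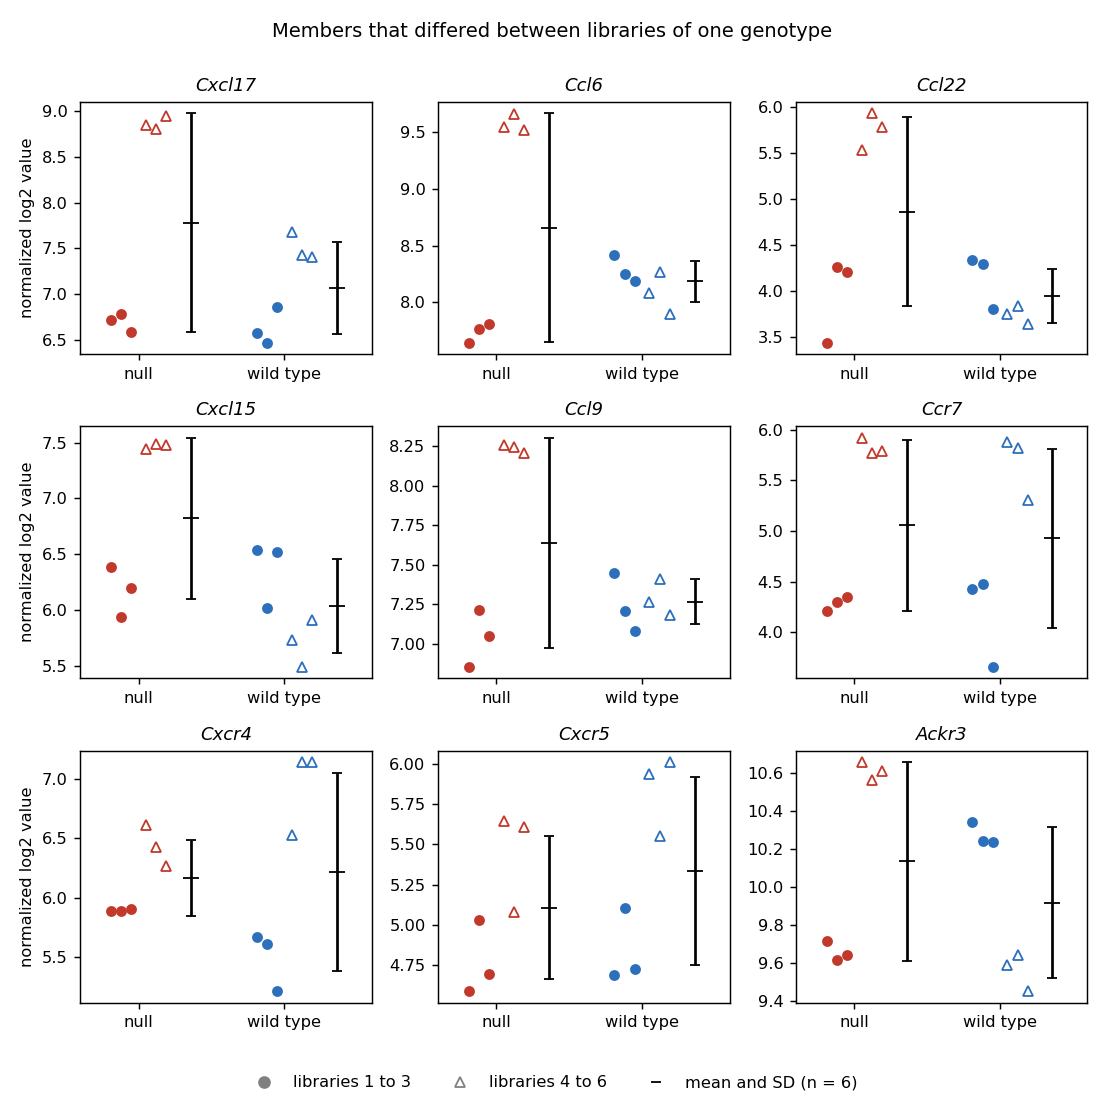
Normalized log2 value by library of 9 members, picked after their values were seen, that differed between libraries of one genotype, with the null on the left. Filled circles are libraries 1 to 3, open triangles libraries 4 to 6, and the bar is the mean with its SD (n = 6). Ccl6, Ccl22, Cxcl15 and Ccl9 are high in null libraries 4 to 6, while Cxcl17, Ccr7, Cxcr4 and Cxcr5 are higher in libraries 4 to 6 of both genotypes.

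Several epithelial and myeloid ligands were high in null libraries 4 to 6 without a call between genotypes, and they are named after their values were seen. Cxcl17, a chemokine of mucosal epithelium, was at 6.72, 6.78, 6.58, 8.86, 8.81 and 8.95 in the null libraries, against 6.57, 6.47, 6.85, 7.68, 7.43 and 7.41 in the wild-type libraries. Its libraries 4 to 6 were the higher ones in both genotypes. Ccl22, a product of dendritic cells and macrophages that binds Ccr4, was at 3.44, 4.26, 4.21, 5.54, 5.94 and 5.79 in the null libraries, against 4.34, 4.29, 3.80, 3.75, 3.84 and 3.64 in the wild-type libraries. Null libraries 1 to 3 and the wild-type libraries shared a range for Ccl22. Adjusted p values across the 12 libraries were 0.191 for Cxcl17 (difference 0.71) and 0.0553 for Ccl22 (difference 0.92), by limma.

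Ccl6 and Ccl9, CC chemokines of mouse myeloid cells that act on Ccr1, lie next to each other on chromosome 11 and were both highest in null libraries 4 to 6. Ccl6 was at 7.65, 7.76, 7.81, 9.55, 9.66 and 9.52 in the null libraries, against 8.42, 8.25, 8.19, 8.08, 8.27 and 7.90 in the wild-type libraries. Null libraries 1 to 3 were below and null libraries 4 to 6 above every wild-type library, so the difference of 0.47 was not called (adjusted p = 0.270), and it was 1.39 with null libraries 4 to 6 alone (adjusted p = 3.17e-06) and -0.45 with null libraries 1 to 3 alone (adjusted p = 0.00489, limma). Ccl9 was at 6.85, 7.21, 7.05, 8.26, 8.24 and 8.21 in the null libraries, against 7.45, 7.21, 7.08, 7.27, 7.41 and 7.18 in the wild-type libraries. Null libraries 1 to 3 overlapped the wild-type range for Ccl9. Cxcl15, an epithelial ligand known as lungkine, was at 6.38, 5.94, 6.20, 7.44, 7.48 and 7.48 in the null libraries, against 6.54, 6.02, 6.52, 5.73, 5.49 and 5.91 in the wild-type libraries. Its difference of 0.79 was called across the 12 libraries (adjusted p = 0.0380, limma) although null libraries 1 to 3 lay within the wild-type range.

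The interferon-induced ligands Cxcl9 and Cxcl10 and their receptor Cxcr3, carried by activated T cells, differed by 0.49, 0.26 and 0.61. Cxcr3 alone was called across the 12 libraries (adjusted p = 0.0201), and Cxcl9 had an adjusted p of 0.0509 and Cxcl10 of 0.0962 (limma). Cxcl9 was at 6.39, 6.06, 6.30, 7.20, 7.04 and 7.14 in the null libraries, against 6.27, 6.51, 5.99, 6.09, 6.01 and 6.32 in the wild-type libraries. It was high in null libraries 4 to 6 only.

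Homeostatic members of lymphoid tissue did not separate the genotypes. Ccr7, which brings T cells and dendritic cells to lymph nodes, was at 4.21, 4.30, 4.35, 5.92, 5.77 and 5.79 in the null libraries, against 4.42, 4.48, 3.66, 5.88, 5.82 and 5.30 in the wild-type libraries. Libraries 4 to 6 of both genotypes were the higher ones, and so they were for Cxcr5, the receptor of B cells for Cxcl13. Differences were 0.13 for Ccr7, -0.23 for Cxcr5 and 0.44 for Cxcl13, and none was called. Summed levels of the 7 B cell markers were 8.49 to 9.39 in the null and 7.97 to 10.26 in wild type, with set means of Cd79a of 5.61 and 6.53 in null libraries 1 to 3 and 4 to 6 and of 5.33 and 7.24 in the same wild-type libraries. Ccl21a, a ligand of Ccr7 made by lymphatic endothelium, was at 7.94, 8.02, 8.03, 7.57, 7.40 and 7.57 in the null libraries, against 7.87, 7.82, 7.94, 8.45, 8.34 and 7.87 in the wild-type libraries, and was not called. Its near-identical copies, Ccl21b and Ccl21c, never reached 4, and their reads may have been assigned to Ccl21a or discarded.

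Ccl25, the ligand of Ccr9 known from thymus and gut, was the 1 member called lower. It was at 5.62, 5.79, 5.66, 5.74, 5.91 and 6.07 in the null libraries, against 5.96, 5.80, 6.23, 6.23, 6.27 and 6.07 in the wild-type libraries. The genotypes overlapped, and the difference of -0.29 had an adjusted p of 0.0491 across the 12 libraries and 0.529 across set means (limma). The call was lost when null library 1, 2, 3, 4 or 5 or wild-type library 3, 4, 5 or 6 was left out. Other ligands that were not called lower included Ccl27a (-0.24) and Ccl11 (-0.15), and Ccl24, which like Ccl11 attracts eosinophils, was at -0.06.

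**Figure D4:**
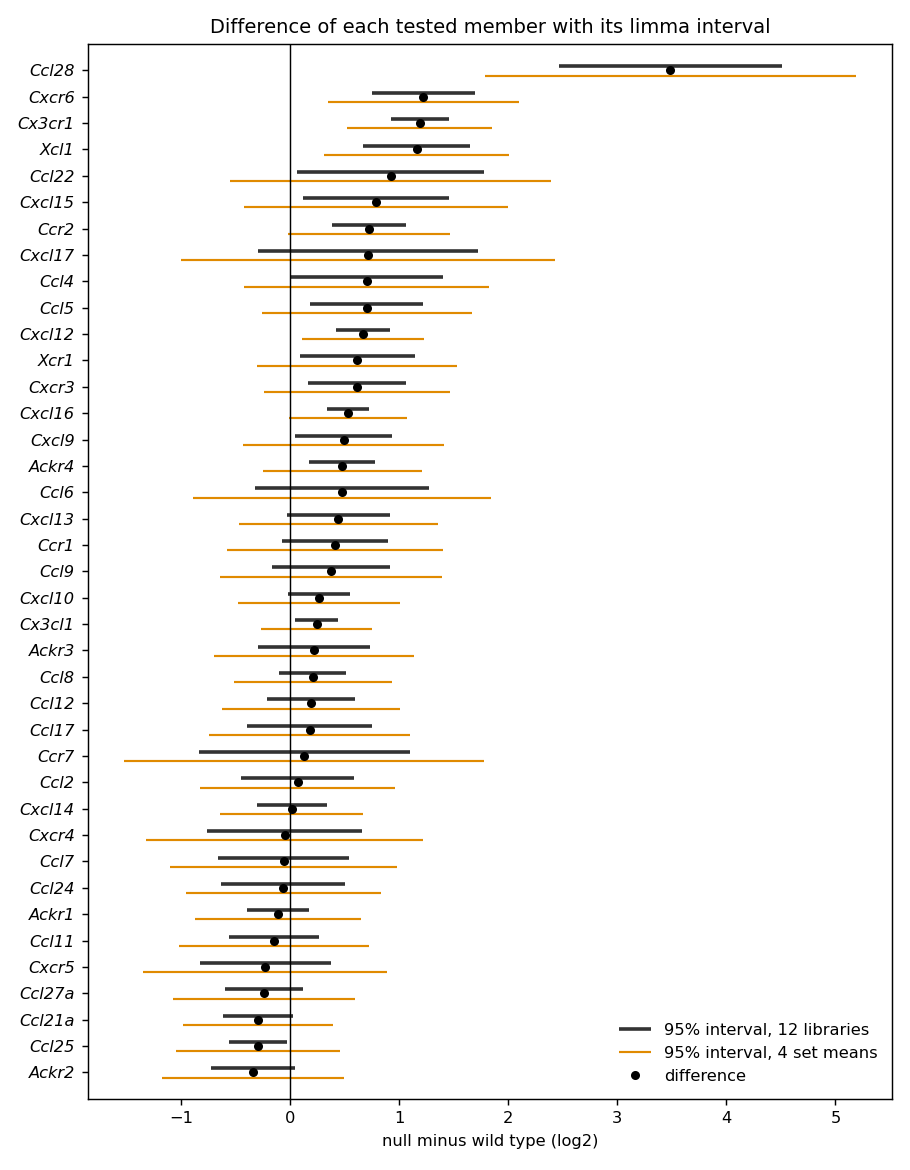
Difference of 39 of the 40 tested members, null minus wild type on the log2 scale, with 95% intervals from limma across the 12 libraries (dark, upper) and over the 4 set means (orange, lower). The unadjusted interval across set means lies above 0 for Ccl28, Cxcr6, Cx3cr1, Xcl1 and Cxcl12, and no adjusted p across set means was 0.05 or less.

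On a scale per kilobase of the longest annotated transcript, Cxcl14, an epithelial and stromal CXC chemokine, had the highest level of the tested members. Its level per kilobase was 9.16 in the null and 9.14 in wild type, followed in wild type by Cx3cl1 (8.67 in the null and 8.43 in wild type) and Ackr3 (8.52 in the null and 8.30 in wild type). Cxcl14 was at 10.28, 10.22, 10.27, 9.77, 9.79 and 9.82 in the null libraries, against 10.35, 10.27, 10.26, 9.65, 9.81 and 9.72 in the wild-type libraries. Libraries 1 to 3 were higher in both genotypes, and the difference was 0.02 (95% interval -0.64 to 0.67 across set means). Ccl28 was the lowest tested member per kilobase in wild type, at 1.28, and was at 4.76 in the null.

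The 27 members that were not tested included 19 that never reached 4. Among these were the neutrophil chemoattractants Cxcl2, Cxcl3 and Cxcl5 and the receptors Cxcr1 and Cxcr2, and Cxcl1 reached 4 in 1 null and 1 wild-type library. Of 9 neutrophil markers only Csf3r was tested, and S100a8, S100a9 and Ly6g did not pass the filter. With no filter on low values limma called 6 of the 27 higher across the 12 libraries and 0 lower, against 15.1% and 12.7% of all 39179 genes (27.8% together). These 39179 include the 16197 tested genes, so the shares are not those of untested genes alone, which are not given here. Called higher were 5924 of the 39179 without the filter and 5518 of the 16197 with it. The 6 members were Ccl20, Ccl3, Cxcl5, Ccr10, Ccr4 and Ccr6, all at levels where the scale is compressed. Ccr6, the receptor of Ccl20, was at 3.19, 3.27, 3.59, 4.37, 4.25 and 4.81 in the null libraries, against 2.64, 2.02, 1.27, 2.10, 2.67 and 3.48 in the wild-type libraries, and the genotypes overlapped by the highest wild-type library.

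Markers of the cells that carry these receptors were measured in the same libraries. The counts called here and in the next paragraph stand beside 34.1% of all tested genes called higher and 31.8% lower across the 12 libraries. Across set means, 4.09% of all tested genes were called. Whether more cells or more RNA per cell lies behind a value cannot be told apart in whole tissue. Ptprc, which encodes CD45 of all leukocytes, had set means of 8.71 and 9.08 in null libraries 1 to 3 and 4 to 6 and of 7.42 and 8.00 in the same wild-type libraries, with a difference of 1.18 (adjusted p = 0.0735 across set means, limma). Of 5 general leukocyte markers, 4 were called higher across the 12 libraries and 1 across set means. That 1 was Cd52, also made by the epithelium of the male ducts, which differed by 3.83. Of 10 T cell markers only Cd8a (difference 1.26) was called higher across the 12 libraries, and the summed T cell level was 9.34 to 10.14 in the null and 8.85 to 9.86 in wild type. Of 9 macrophage markers, 4 were called higher and 1 lower, with summed levels of 12.06 to 12.57 in the null and 12.18 to 12.26 in wild type. Of 7 dendritic cell markers, 5 were called higher, with summed levels of 9.19 to 9.61 in the null and 8.69 to 8.99 in wild type. Of 7 blood endothelial markers, 6 were called higher, with summed levels of 10.91 to 11.60 in the null and 10.20 to 10.43 in wild type. Of 6 natural killer cell markers, 1 of 5 tested was called higher, with summed levels of 7.64 to 8.30 in the null and 7.34 to 7.64 in wild type. Apart from Cd52, 0 markers of the leukocyte and blood endothelial lists above were called across set means, and all listed markers of T cells, macrophages and blood endothelium passed the filter.

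Markers of other cell types differed as well. Of 5 adipocyte markers, 4 were called higher across the 12 libraries and 2, Plin1 and Cidec, across set means, with summed levels of 10.71 to 11.26 in the null and 9.45 to 10.57 in wild type. Of 5 smooth muscle markers, 4 were called lower and 0 across set means, with summed levels of 16.03 to 16.62 in the null and 16.40 to 16.72 in wild type. Of 6 epithelial markers, 3 were called higher and 2 lower, and Trp63 of basal cells was called higher across set means. The calls across the 12 libraries were 4 higher of 5 for lymphatic endothelium, 3 higher of 4 for mast cells, 2 higher and 1 lower of 5 for plasma cells, 1 higher of 5 for monocytes, 1 higher of 5 for red blood cells and 0 of 1 for eosinophils, with 0 across set means in these lists. The part of these cell types in the members' differences was not tested.

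Leukocyte RNA was then entered as a covariate in limma across the 12 libraries, in a pair of versions that were both chosen after the data were seen. With the mean of all 5 general leukocyte markers, which was run first, 3 members were called higher (Cxcl12, Cxcl14 and Cx3cr1) and 13 lower. The median difference was -0.59, beside 0.03 over all tested genes, and Ccl28 differed by 0.20 and was not called (adjusted p = 0.816). The version without Cd52 was added after that result was seen, because Cd52 is not specific to leukocytes in this tissue and differed most. With the mean of Ptprc, Cd53, Coro1a and Laptm5, 10 members were called higher and 5 lower. The median difference was 0.15, beside 0.06 over all tested genes, and Ccl28 differed by 2.78 (adjusted p = 3.63e-04). The shares of all genes called with these covariates are not given here, so the counts describe the members only. Cxcl12 and Cx3cr1 were called higher in both versions, and the calls of the other 7 members without overlap depended on the version or, for Ackr4, were lost in both. With all 5 markers Cxcr6 still differed by 1.02 (adjusted p = 0.125) and Xcl1 by 0.91 (adjusted p = 0.18), while Ccr2 differed by 0.049 (adjusted p = 0.906) and Cxcl16 by 0.033 (adjusted p = 0.862). Log2 of the summed levels of the 5 markers was 14.5 to 15.4 in the null and 11.5 to 12.3 in wild type, without overlap. The covariate itself was the mean of their log2 values, and its range is not given here. Genotype and the level of these 5 markers can thus hardly be told apart. Ptprc, which is in both versions, also separated the genotypes. No conclusion is drawn from calls lost or gained with either covariate.

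**Figure D5:**
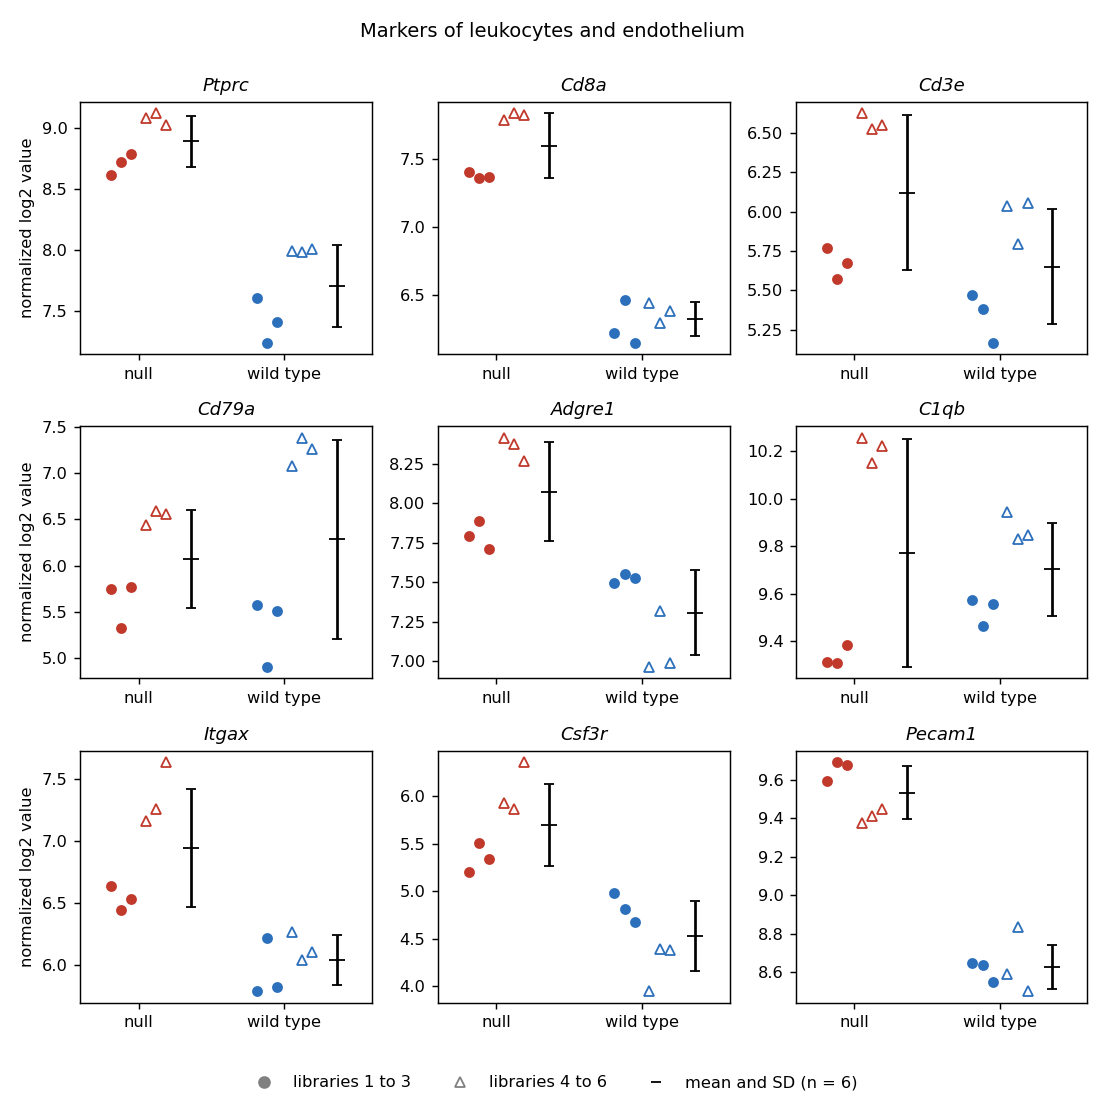
Normalized log2 value by library of markers of all leukocytes (Ptprc), T cells (Cd8a, Cd3e), B cells (Cd79a), macrophages (Adgre1, C1qb), dendritic cells (Itgax), granulocytes (Csf3r) and endothelium (Pecam1), with the null on the left. Filled circles are libraries 1 to 3, open triangles libraries 4 to 6, and the bar is the mean with its SD (n = 6). Ptprc, Cd8a, Adgre1, Itgax, Csf3r and Pecam1 separate the genotypes, while Cd3e, Cd79a and C1qb overlap.

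Genes that act with chemokines were taken from whole pathway lists, and their counts stand beside 34.1% of all tested genes called higher, 31.8% lower and 65.9% either way across the 12 libraries, and 4.09% across set means. Of 33 genes of receptor signalling, 18 were called higher and 8 lower across the 12 libraries and 1 higher across set means. This was Grk5, a kinase that switches off activated receptors, with means of 8.52 in the null and 6.14 in wild type (adjusted p = 0.0198 across set means, limma). Of 15 tested adhesion molecules of leukocyte entry, 10 were called higher and 0 lower across the 12 libraries and 0 across set means, with a median difference of 0.77.

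Of 17 genes of the NF-kappa B pathway, which induces many chemokines, 10 were called higher and 3 lower across the 12 libraries. Rel, a subunit of NF-kappa B in lymphoid cells, was the 1 called across set means and rose by 2.09, with means of 5.44 in the null and 3.35 in wild type (adjusted p = 0.0475, limma). Its wild-type mean was below the filter value of 4, where the scale is compressed, so Rel may have passed the filter mostly through the null libraries. Of 12 genes of the interferon pathway, 6 were called higher and 3 lower. Jak2, a kinase of the interferon gamma receptor, rose by 1.31 (adjusted p = 0.0209 across set means). Of 14 tested inducing cytokines and their receptors, 4 were called higher and 5 lower. Ifngr1, the ligand-binding chain of that receptor, was at 9.95 in the null and 11.20 in wild type and fell by 1.26 (adjusted p = 0.0251 across set means). The cytokines Il1a, Il6, Il17a, Il17c, Ifng and Il13 did not pass the filter. Of 10 glycosaminoglycan and protease partners, 7 were called higher across the 12 libraries and 0 across set means. Among chemokines outside the symbol rule (Pf4, Ppbp, Cklf, Mif and Rarres2), 4 were tested and 1 was called lower, and of 5 receptors outside it 3 were called higher, with 0 called across set means in either list.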

How the data were processed

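Poly-A RNA from whole prostate was sequenced on an Illumina HiSeq2000 after TruSeq preparation, per the labels' protocols. The submitters' processing notes list, with no roles, the builds GRCm38.p2 and mm9 and the tools DESeq, Cufflinks, TopHat and CASAVA 1.8.2. The sources used here do not give the strand setting or the handling of shared reads. The authors deposited log2 values normalized between libraries. Linear values from 2353 to 5793 became whole reads (tolerance 0.1) with 1 factor and offset per library, but only 28.8% to 31.8% of somewhat lower ones, so no count test was possible and totals are estimates. Over 704 genes the median chi-square between libraries of a set was 0.974 to 5.24, against 0.455 by sampling, so libraries were not merged.

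Of 39179 IDs, 96.2% matched GENCODE M21 (GRCm38). Genes at 4 or more in 6 or more libraries were tested two-sided in R 4.3.3 by limma 3.58.1 with a variance trend, over 12 libraries and over set means, after checks on simulated data. The simulated libraries held no difference between sets, so those checks cannot speak for the p-values over 12 libraries. Python 3.11.15 gave read totals, motif searches and figures. Alternatives were other scalings, filters, weights and sets of libraries, and leukocyte covariates added after the data were seen. The members and lists were chosen with earlier results of these data known. Values in every library were to be given for members called in both analyses (0 were) and the most abundant members (the 6 highest ligands and 4 highest receptors); other members given so were chosen after their values were seen. From each pathway list, genes called in both analyses are named. The gene under study and 1 member, which stays in the counts, are not reported here.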

Additional observations from a re-analysis of the deposited data

Results flagged for a closer look

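Among 80 groups of 6 libraries examined (the 40 tested members in each genotype), 2 held a library far from the others, and chance gives about 1 such group in 20. Ackr4 was at 6.68 in wild-type library 4, with the next wild-type library at 7.01 and the highest at 7.15. Ccl8 was at 7.52 in wild-type library 4, with the next wild-type library at 7.07 and the lowest at 6.96.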

How the results depend on the processing

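The number of members called higher in the null over the 12 libraries was 14, and it was 23 with library totals or without null libraries 1 to 3, 9 with quantile normalization or at an adjusted p of 0.01, 8 without null libraries 4 to 6, 3 with the set as a random block or with the covariate of all 5 leukocyte markers, and 0 over the set means. The 1 member called lower became 13 with the covariate of 5 markers, 6 with quantile normalization, 5 without wild-type libraries 1 to 3 or with the covariate of 4 markers without Cd52, 3 without null libraries 4 to 6, and 0 with library totals, without the 50 most abundant genes, with upper-quartile centring, with the length trend removed, with no filter, with the stricter filter, with library weights, with the set as a block, over the set means, at an adjusted p of 0.01 and without wild-type libraries 4 to 6. Leaving out each library gave 11 to 17 higher and 0 to 2 lower and a median of 0.27 to 0.47. The median of 0.39 was 0.70 with library totals, 0.13 with quantile normalization, 0.69 without null libraries 1 to 3, 0.049 without null libraries 4 to 6, 0.15 with the covariate of 4 markers and -0.59 with that of 5. The covariate of 5 markers was run first and the one of 4 was added after its result was seen, so neither is preferred here. With 5 markers Ackr3 was -0.85, Ackr4 -0.26, Ccl21a 0.19, Ccl6 -2.27 and Cx3cl1 -0.38. Library totals moved the median of all genes to 0.37 and quantile normalization to -0.04. Counts of members called under these scalings are therefore not results about the members alone. How many of all genes were called with the other scalings, the random block or an adjusted p of 0.01 is not given here. The members' median minus that of all genes was 0.34, and it was 0.17 with quantile normalization, -0.0021 without null libraries 4 to 6 and -0.62 with the covariate of 5 markers; library totals shift all genes alike and cannot move it. With library totals, 5 members were called higher in both analyses (Ccl28, Cxcl12, Xcl1, Cx3cr1 and Cxcr6), and the matching share of all genes is not given here. Cxcl14 ranged from -0.057 to 0.083 when single libraries were left out and was -0.22 without null libraries 1 to 3 and -0.27 without wild-type libraries 4 to 6. Ackr3 was -0.26 without null libraries 4 to 6 and -0.14 without wild-type libraries 4 to 6, Ccl21a was 0.021 with library totals and 0.11 with the length trend removed, and Ccl6 was -0.45 without null libraries 4 to 6 and -0.12 with the covariate of 4 markers. The cause of these shifts was not tested. Members near the filter value of 4 are limited by depth. No paired analysis was possible because the labels carry no replicate numbers shared between genotypes.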
